A study of Drosophila melanogaster with 2 samples.

Results

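The translation initiation, elongation and release factors of Drosophila melanogaster were followed in whole larvae whose wing discs were undergoing induced cell death. The factors were taken as every gene whose symbol starts with eIF, eEF or eRF, matched through the CG number of the array probe. This gave 53 genes on 56 probes, of 13137 genes on 14593 probes in all. RNA of whole female larvae of the third instar was compared on 2 two-colour oligonucleotide arrays, which set RNA of ablated larvae against that of control larvae. Ablated larvae (rnGAL4,UASegr,tubGAL80[ts]/+) expressed eiger, the fly's TNF, through the driver in the rotund locus, which is active in the wing pouch, where this ligand kills cells. Control larvae (TM6,Tb[1],tubGAL80) carried the TM6 balancer, marked by Tubby, and the GAL80 repressor, and no driver or eiger transgene is listed for them. Both groups had 24 h at 30 °C, and the titles give day 6. The targeted cells are a small part of an animal that was extracted whole. The labels do not give the number of larvae per RNA or whether the replicates are separate batches of animals. Every p-value here thus rests on the spread of 2 arrays, which limma shares over genes, and that spread may be technical.

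Translation of a messenger RNA starts when the cap-binding complex (eIF4E, eIF4G and the helicase eIF4A) recruits the small ribosomal subunit, which carries eIF3, eIF1, eIF1A and the ternary complex of eIF2, GTP and initiator tRNA. eIF2 is recharged by its exchange factor eIF2B, and phosphorylation of eIF2alpha by stress kinases blocks that step. eEF1alpha delivers aminoacyl-tRNA to the ribosome, and the other eEF1 proteins form the complex that recharges eEF1alpha. eEF2 moves the ribosome along, and eRF1 with eRF3 ends synthesis at the stop codon. In growing larvae the factors just named, though not necessarily each of their paralogs, are made in nearly every tissue. A whole-larva RNA sample therefore averages over fat body, gut, muscle, salivary gland and discs. Lower RNA per cell and fewer cells of a tissue cannot be told apart in such samples.

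The 2 arrays differed in brightness. Of all gene spots, 38.1% (ablated) and 26.9% (control) were above the local background by 2 SD on replicate 1, and replicate 2 had 17.6% (ablated) and 15.0% (control). The dyes were swapped: Cy5 marked the ablated RNA of replicate 1, and Cy3 that of replicate 2. Across the 5971 genes above background in some channel, the ratios of the arrays, both turned to run as ablated over control, ran against each other (Pearson's r = -0.53, across genes, which are not independent replicates). The direction of single genes is therefore unsettled, and values are also given with the sign of replicate 2 turned, which follows the dye and not the label. The probes of egr and Tb were above background in no channel, and the rn probe read 0.34 on replicate 1 and -0.95 on replicate 2, so these genes gave no check of the labels. All 5 salivary glue genes chosen as tissue markers were below 0 on both arrays, against 22.4% of all genes tested. Their median log2 ratio of ablated to control was -1.78, though none passed limma's test. Of the other tissue markers tested, 3 of 5 for fat body and 1 of 3 for muscle were below 0 on both arrays. Above 0 on both were 2 of 4 for wing disc and the single genes for midgut and hemocyte. The rest had opposite signs. The part of these tissues in the values below was not tested.

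No translation factor rose or fell in ablated larvae by limma's test. Of the 53 genes, 28 were above background in some channel and were tested, and 25 were not. At a Benjamini-Hochberg adjusted p of 0.05 over all genes tested, 0 of the 28 passed and 0 of the 5971 genes passed (0%). At an unadjusted p under 0.05 there were 0 of 28, against 144 of all genes (2.41%), and the smallest p among the factors was 0.155. The median log2 ratio of ablated to control was -0.024 for the factors and 0.0092 for all genes tested, on the scale where 1 is a 2-fold difference. By array, the median of the factors was 0.032 on replicate 1 and 0.050 on replicate 2.

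Signs were read array by array as a description. Both arrays were above 0 for 11 of the 28 factors (39.3%), against 24.5% of all genes tested. Both were below 0 for 5 factors (17.9%), against 22.4% of all genes. The remaining 12 factors had opposite signs on the arrays (42.9%), against 53.2% of all genes. The share of factors above 0 on both arrays depended on the processing. It was 25% with print-tip loess, against 24.3% of all genes, and 34.6% in the authors' log2 ratios, against 38.3% of all genes. The higher share among the factors thus did not hold under every processing. With median centring it was 42.9%, against 34.7% of all genes. Under the other processing with the labelled dyes it also stayed above that of all genes. Examples are 28.6% against 23.8% with plain subtraction, and 32.1% against 23% without the filter on dim probes. These shares were not tested. The median of all genes was 0.14 under median centring and 0.31 in the deposited values. No factor reached a 2-fold difference of the same sign on both arrays (0.402% of all genes did), and 1, eEF1gamma, reached it with opposite signs (5.79% of all genes).

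**Figure D1:**
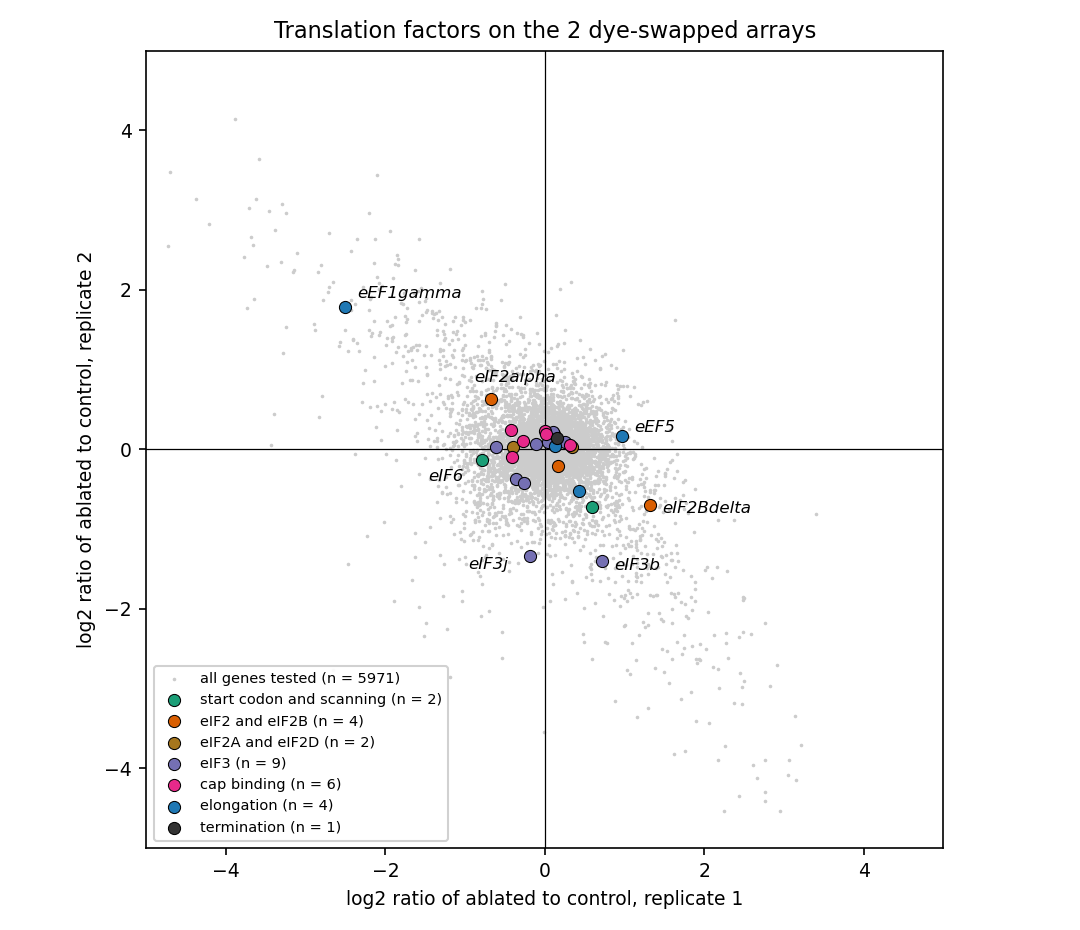
Log2 ratio of ablated to control on replicate 1 (x axis) and replicate 2 (y axis) for all 5971 genes tested (grey, 1 gene outside the axes) and the 28 translation factors (colours by complex). Most factors lie near 0, and the factors farthest out, eEF1gamma, eIF2Bdelta and eIF3b, lie along the falling diagonal, where the arrays disagree in sign.

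**Figure D2:**
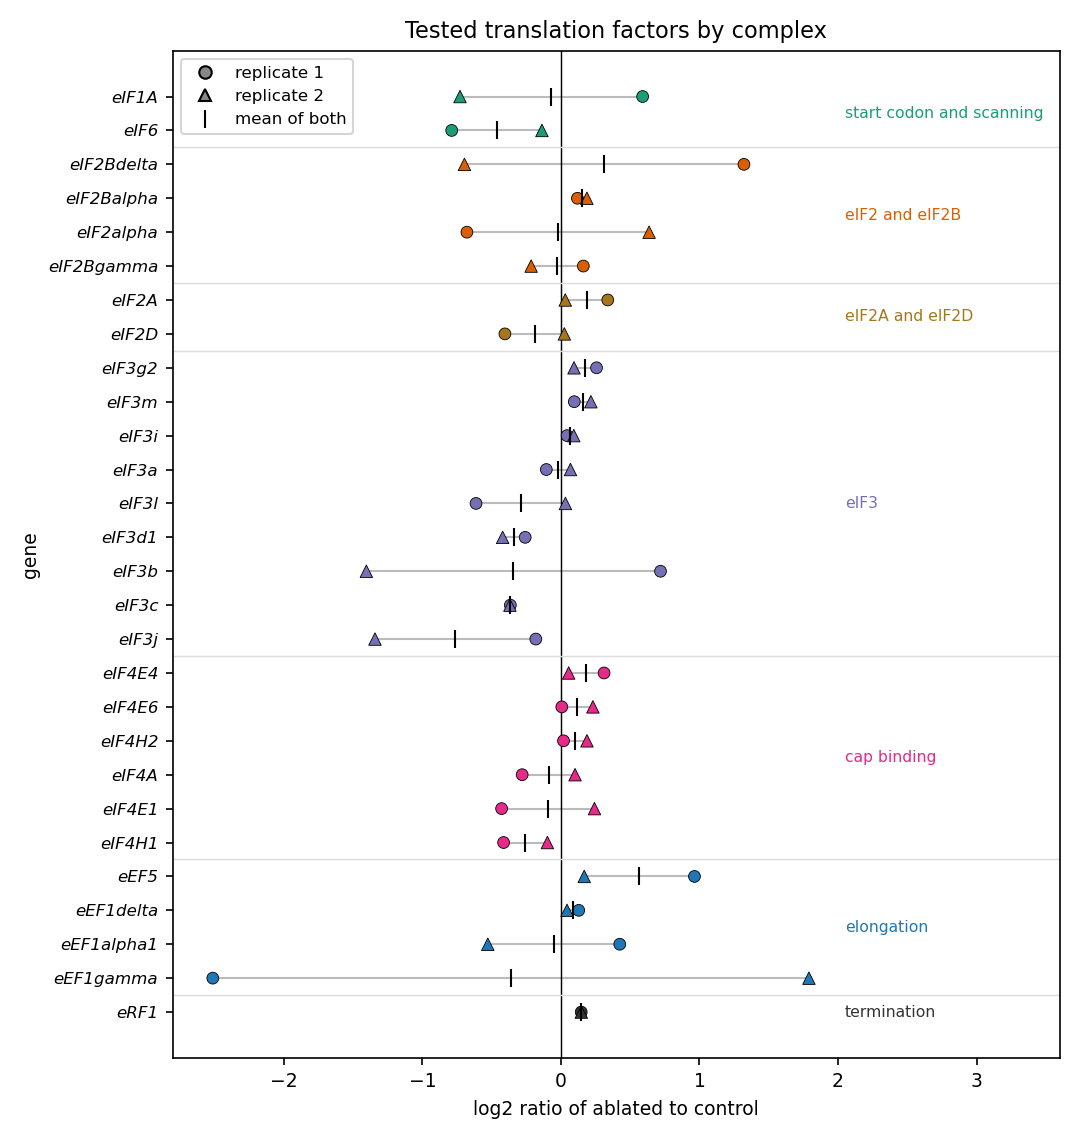
Log2 ratio of ablated to control for each tested factor (rows, by complex) on replicate 1 (circles) and replicate 2 (triangles), with the mean of both as a tick. The symbols fall on opposite sides of 0 for 12 factors, and the longest line is that of eEF1gamma, between -2.51 and 1.79.

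Among factors of scanning and subunit joining, eIF1A and eIF6 were tested. eIF6 keeps the large ribosomal subunit from joining too early. Its probe read 1770 in ablated and 1914 in control RNA on replicate 1, and 712 in ablated and 795 in control RNA on replicate 2, in scanner units before normalization. After normalization its log2 ratio was -0.79 on replicate 1 and -0.14 on replicate 2, a mean of -0.46 ± 0.46 (SD, n = 2). Both arrays were below 0, but by unequal amounts, and limma gave an adjusted p of 0.996 with a 95% interval from -1.40 to 0.47. eIF1A, which helps the scanning ribosome find the start codon, read 0.59 and -0.73. The probes of eIF1, eIF5, the GTPase-activating protein of eIF2, and eIF5B, which joins the subunits, were above background in no channel.

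The eIF2 subunit eIF2alpha (CG9946), the target of stress kinases, had signals of 12549 in ablated and 12586 in control RNA on replicate 1, against 15284 in ablated and 8796 in control RNA on replicate 2. Its log2 ratio was -0.68 on replicate 1 and 0.64 on replicate 2, so that ablated RNA was lower on the first and higher on the other by nearly the same amount. The mean of -0.021 ± 0.93 had a 95% interval from -1.54 to 1.50, which leaves room for a change of more than 2-fold either way. The spot was above background in all 4 channels, and so this disagreement did not come with a dim signal.

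Of the exchange factor eIF2B, 3 subunits were tested, and each was above background on replicate 2 only. The regulatory subunit eIF2Balpha read 0.12 on replicate 1 and 0.19 on replicate 2 (mean 0.15 ± 0.049). These are among the closest pairs in the family, yet the interval still ran from -0.49 to 0.79. The regulatory subunit eIF2Bdelta had signals of 1964 in ablated and 623 in control RNA on replicate 1, and 650 in ablated and 1075 in control RNA on replicate 2. Its ratios of 1.32 and -0.70 lie on opposite sides of 0. The catalytic partner eIF2Bgamma read 0.16 and -0.21. The probes of eIF2beta, eIF2Bbeta and eIF2Bepsilon were above background in no channel.

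eIF2A and eIF2D, which can bring initiator tRNA to the ribosome without eIF2, had control RNA above background on neither array. eIF2A read 0.34 and 0.03 (adjusted p = 0.996 by limma), and neither group was above background on replicate 2. eIF2D read -0.40 and 0.02. In all, 8 of the 28 tested factors had control RNA above background in no spot of either array (eIF2A, eIF2D, eIF3i, eIF3j, eIF3m, eIF4E4, eIF4E6 and eIF4H2), and ratios of these are readings rather than folds. For eIF4A, printed many times, only ablated RNA of replicate 1 was above background in at least 50% of the copies. Control RNA on each array and ablated RNA on replicate 2 were above it in fewer.

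eIF3, the largest initiation complex, was represented by 16 genes, of which 9 were tested. Both arrays were above 0 for 3, below 0 for 3 and of opposite signs for 3, with a median log2 ratio of -0.29. The core subunit eIF3c (CG4954) had signals of 1771 in ablated and 1461 in control RNA on replicate 1, and 465 in ablated and 649 in control RNA on replicate 2. After normalization it read -0.36 and -0.37, with the smallest p of the family and an adjusted p of 0.996 by limma. The closeness of the pair carries little weight, since limma's spread, shared over all genes, carries the upper end of the 95% interval to 0.27, and neither group was above background on replicate 2.

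eIF3d1, a subunit that can itself bind caps, was above background in every channel, with 333 in ablated and 335 in control RNA on replicate 1, and 1770 in ablated and 2342 in control RNA on replicate 2. Its log2 ratios were -0.26 and -0.42, both below 0 (mean -0.34 ± 0.12, adjusted p = 0.996 by limma). eIF3g2, an RNA-binding subunit paralogous to eIF3g1, was also above background in every channel. It had 1406 in ablated and 735 in control RNA on replicate 1, and 1699 in ablated and 1484 in control RNA on replicate 2, with ratios of 0.26 and 0.09. These subunits, eIF3d1 and eIF3g2, thus leaned in opposite directions, each by less than limma's spread. The probes of their paralogs eIF3d2 and eIF3g1 were above background in no channel.

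eIF3b, a core scaffold subunit, has 2 probes here, and both read opposite signs on the arrays. The brighter gave 0.72 and -1.40, with ablated RNA above background on replicate 1 only and control RNA on replicate 2 only. The other gave 0.82 and -0.35. The loosely bound subunit eIF3j had the lowest mean of the family, -0.76 ± 0.82, from -0.18 on replicate 1 and -1.34 on replicate 2. Control RNA was above background on neither array for eIF3j, although its signal (564) was higher than that of ablated RNA (372) on replicate 2, so this value is not a fold. Of the remaining subunits, eIF3a read -0.11 and 0.07, eIF3l read -0.61 and 0.03, and eIF3i read 0.04 and 0.09. eIF3m read 0.10 and 0.22, with neither group above background on replicate 1, and its mean was -0.51 in the authors' log2 ratios. eIF3e, eIF3f1, eIF3f2, eIF3h and eIF3k were above background in no channel.

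The cap-binding group had 13 genes, of which 6 were tested, with a median log2 ratio of 0.0073. eIF4E1, the main cap-binding protein, has 2 probes that disagree. The brighter read -0.43 and 0.24, and it was above background on replicate 2 only, with 4608 in ablated and 3592 in control RNA. The other read 0.49 and -0.21, and was above background in ablated RNA on replicate 1 only. The sign therefore changed both between probes of the gene and between arrays for each probe. The RNA-binding partner of the helicase, eIF4H1, was lower on both arrays at -0.41 and -0.10 (mean -0.26 ± 0.22). Its paralog eIF4H2 read 0.02 and 0.19. The eIF4E paralogs eIF4E4 and eIF4E6 read 0.31 and 0.06, and 0.01 and 0.23. The scaffolds eIF4G1 and eIF4G2, eIF4B, eIF4EHP, eIF4E3, eIF4E5 and eIF4E7 were above background in no channel, so the scaffold of the complex is not measured in these samples.

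eIF4A (CG9075), the DEAD-box helicase that unwinds the 5′ leader, was printed 17 times on each array, 1 copy in block 20 and 4 copies in each of blocks 35, 36, 39 and 40. The copies read the same RNA and so show the technical spread of a ratio, not that between larvae. On replicate 1 ablated RNA was above background in 11 copies and control RNA in 8, and on replicate 2 in 8 copies (ablated) and 2 copies (control). The signal of a copy differed with its place. On replicate 1 it ran between 121 and 3246 in ablated RNA, with a median of 1346, and between 195 and 3067 in control RNA, with a median of 971. On replicate 2 it ran between 122 and 2997 in ablated RNA (median 307) and between 119 and 2947 in control RNA (median 331). The copy in block 20 was the brightest in every channel, and the dimmest copies on replicate 1 were in block 39, where ablated RNA gave 121 to 364.

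The ratios of the copies varied far less than their signals. On replicate 1 all 17 copies were below 0, between -0.63 and -0.11, with a mean of -0.28 and an SD between copies of 0.14. On replicate 2, 14 of 17 copies were above 0, between -0.41 and 0.42, with a mean of 0.10 and an SD of 0.19. The SD between the 2 arrays was 0.27 (n = 2). That SD is of means over 17 copies, whereas the SD between copies is of single copies, so their sizes cannot be ranked against each other. Both depended on the processing. With median centring the arrays differed by an SD of 0.15 and the copies by 0.19 on each array. With plain background subtraction the arrays differed by 0.54 and the copies by 0.32 and 1.23. The mean over both arrays was -0.089, with an adjusted p of 0.996 by limma and a 95% interval from -0.84 to 0.66. In terms of the dyes, the normalized log2 ratio of Cy5 to Cy3 was below 0 on both arrays, with means of -0.28 and -0.10. Before normalization the median signal of the copies was higher in Cy5 on both arrays. It was 1346 in Cy5 against 971 in Cy3 on replicate 1, and 331 against 307 on replicate 2.

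The ratio also differed between blocks. On replicate 1 the block means were -0.38 in block 35, -0.18 in block 36, -0.27 in block 39 and -0.20 in block 40, while the single copy in block 20 read -0.63. On replicate 2 the copies of blocks 35 and 39 averaged 0.25 and 0.20, those of blocks 36 and 40 averaged -0.031 and 0.025, and the copy in block 20 read -0.042. Restricted to copies above background in both channels, 8 on replicate 1 and 2 on replicate 2, the means were -0.27 and 0.029. On replicate 2 the blocks of highest ratio, 35 and 39, were also the dimmest. No copy had a saturated pixel. For comparison, the SD between copies of the other 11 probes printed 17 times ran from 0.11 (Nup154) to 0.43 (RpS25) on replicate 1, with 9 of the 11 above that of eIF4A, and from 0.12 (RpS25) to 0.37 (RpL9) on replicate 2, with 6 of the 11 above it.

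**Figure D3:**
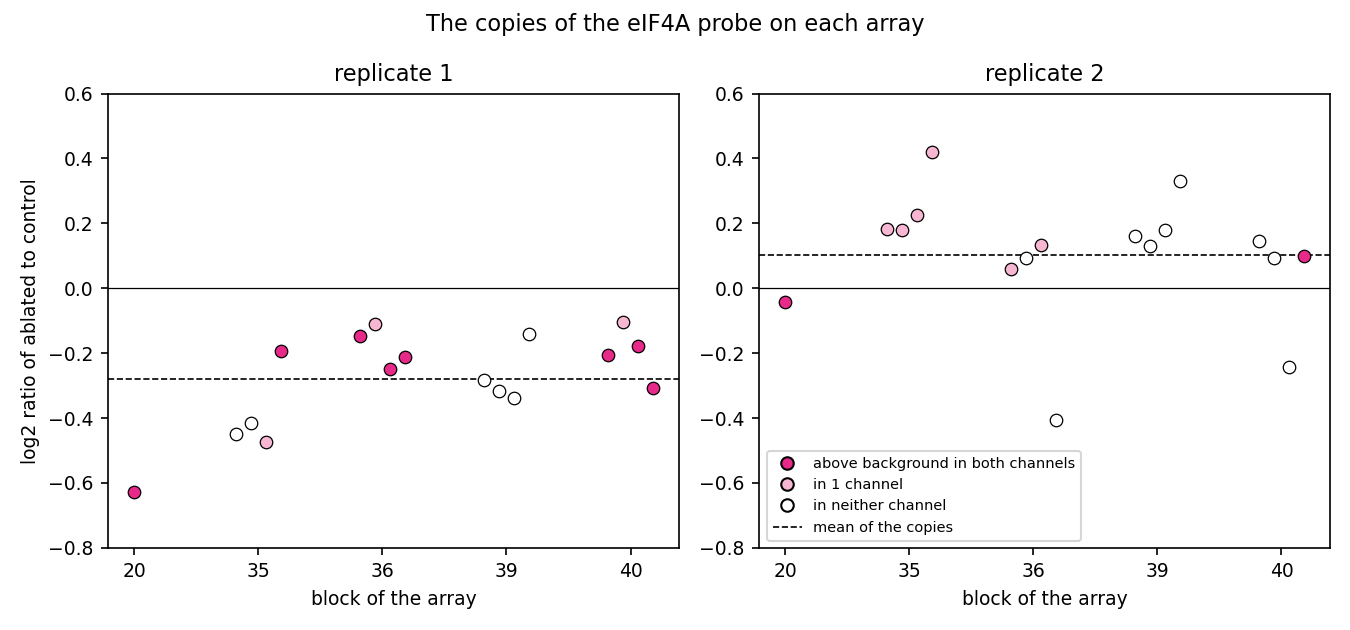
Log2 ratio of ablated to control for each of the 17 eIF4A copies (points) by block of the array (x axis), on replicate 1 (left) and replicate 2 (right), filled by whether the copy was above background. All 17 copies lie below 0 on replicate 1 around a mean of -0.28 (dashed), and 14 lie above 0 on replicate 2 around a mean of 0.10.

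The elongation factors included the widest disagreement and the highest mean of the family. eEF1gamma (CG11901), a structural subunit of the complex that recharges eEF1alpha, had signals of 5640 in ablated and 20072 in control RNA on replicate 1, against 14287 in ablated and 3776 in control RNA on replicate 2. Its log2 ratio was -2.51 on replicate 1 and 1.79 on replicate 2, so control RNA was brighter on the first array and ablated RNA on the other, at signals well above background in all 4 channels. The Cy3 channel was the brighter both times. The mean was -0.36 ± 3.04, with a 95% interval from -4.93 to 4.21, and no direction can be given.

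eEF5 (CG3186), the hypusine-bearing factor known in other species as eIF5A, had signals of 8778 in ablated and 2820 in control RNA on replicate 1, and 7743 in ablated and 6299 in control RNA on replicate 2. Ablated RNA was brighter on both arrays, and the log2 ratios of 0.96 and 0.17 gave a mean of 0.57 ± 0.56. This was the highest mean among the factors, yet the arrays differed by more than the mean (adjusted p = 0.996 by limma, 95% interval -0.49 to 1.62). Its mean stayed above 0 under every processing tried with both arrays, between 0.45 and 1.02, and was 0.40 with the sign of replicate 2 turned.

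eEF1delta, another subunit of the exchange complex, had 4603 in ablated and 2617 in control RNA on replicate 1, and 2639 in ablated and 2376 in control RNA on replicate 2, for ratios of 0.13 and 0.04. Its further probe read 0.26 on each array, above background on replicate 1 only. eEF1alpha1, which carries aminoacyl-tRNA to the ribosome, read 0.42 and -0.53. Its paralog eEF1alpha2, eEF1beta, the translocase eEF2 and eEFSec, the factor for selenocysteine, were above background in no channel. eRF1, which reads the stop codons, had 405 in ablated and 284 in control RNA on replicate 1, and 140 in ablated and 221 in control RNA on replicate 2. It read 0.15 on both arrays after normalization, and was above background on replicate 1 only. Its partner GTPase eRF3 was above background in no channel.

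**Figure D4:**
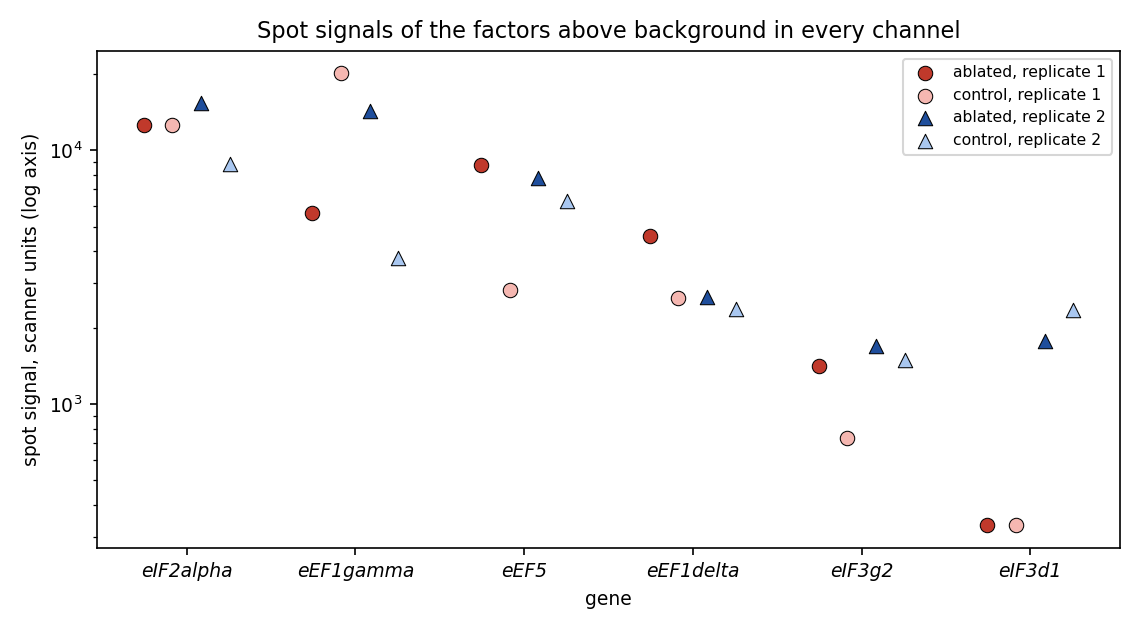
Spot signals in scanner units before normalization (log axis) of the 6 factors above background in every channel, in ablated and control RNA of replicate 1 (circles) and replicate 2 (triangles). The order of the groups turns between the arrays for eEF1gamma (5640 in ablated and 20072 in control RNA on replicate 1, 14287 in ablated and 3776 in control RNA on replicate 2). For eIF2alpha the groups are nearly equal on replicate 1 (12549 in ablated and 12586 in control RNA). On replicate 2 its ablated RNA is brighter (15284 against 8796). Ablated RNA is brighter on both arrays for eEF5, eEF1delta and eIF3g2. Heights of different probes cannot be compared.

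Read by dye, with the sign of replicate 2 turned, 3 of the 28 factors passed limma at an adjusted p of 0.05, against 515 of the 5971 genes (8.63%), and 3 factors had an unadjusted p under 0.05, against 14.1% of all genes. These were eEF1gamma at -2.15 ± 0.51 (adjusted p = 1.32e-08), eIF3b at 1.06 ± 0.48 (adjusted p = 0.0224) and eIF2Bdelta at 1.01 ± 0.44 (adjusted p = 0.0350). With replicate 2 turned, limma gave the same spread to every gene. The calls in this reading therefore follow the size of the mean alone, and the SDs beside the means played no part in them. Of the 28 factors, 5 exceeded 0.5 in size on both arrays (eEF1gamma, eIF2Bdelta, eIF3b, eIF1A and eIF2alpha), and these 5 had opposite signs as labelled. Of all genes tested, 12.1% exceeded 0.5 on both arrays with opposite signs and 3.75% with the same sign. Among the factors that exceeded 0.5 on 1 array only, eIF3j, eEF5 and eIF6 had the same sign on both as labelled, and eIF3l and eEF1alpha1 had opposite signs. A dye effect and an exchanged label cannot be told apart with 1 array per orientation.

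Genes that act beside the factors were taken from a list of 46 translation regulators, of which 43 were on the array and 20 were tested. None passed limma. Of the 20, 6 were above 0 on both arrays, 3 below 0 on both and 11 of opposite signs, with a median of 0.031. Over all genes tested these shares were 24.5%, 22.4% and 53.2%, with a median of 0.0092. Within the list, the 4 of smallest p were pix, mEFTu2, PEK and RpLP0. The ATPase pix, which splits ribosomes after termination, read -0.66 on replicate 1 and -1.19 on replicate 2 (adjusted p = 0.996 by limma). Ablated RNA of pix was above background on neither array and control RNA on replicate 2 only, so this is a reading rather than a fold. The mitochondrial elongation factor mEFTu2, above background in every channel, had 4403 in ablated and 1954 in control RNA on replicate 1, and 1389 in ablated and 1056 in control RNA on replicate 2, with ratios of 0.52 and 0.35. PEK, a kinase that phosphorylates eIF2alpha, read -0.38 and -0.45, and neither group was above background on replicate 2. RpLP0, a protein of the ribosomal stalk on which elongation factors act, read -0.28 and -0.42. Its control RNA was not above background on replicate 1. Before normalization ablated RNA was the brighter on replicate 1 for both, at 6383 against 5211 for PEK and 662 against 553 for RpLP0.

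**Figure D5:**
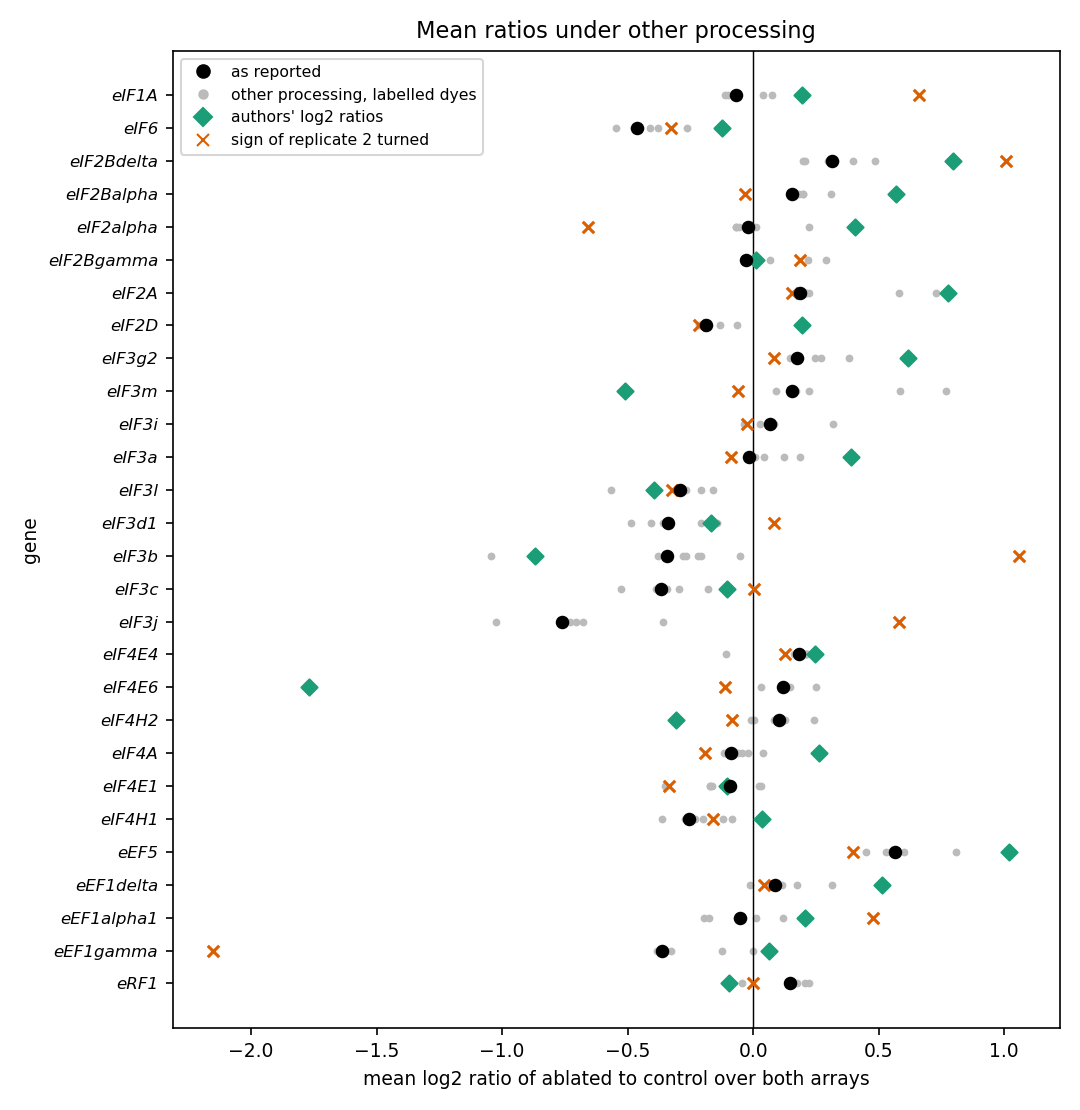
Mean log2 ratio of ablated to control over both arrays for each tested factor (rows) as reported (black), under other processing with the labelled dyes (grey), in the authors' log2 ratios (green) and with the sign of replicate 2 turned (crosses). eEF5 stays above 0 throughout, while eEF1gamma moves to -2.15 and eIF3b to 1.06 when replicate 2 is turned.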

How the data were processed

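Per the file headers, both arrays were scanned for Cy5 and Cy3 and quantified with GenePix Pro 7.1.25; the deposited spot and background intensity medians had been scaled by a factor per channel. The deposited percent of saturated pixels was also used. The authors' deposited log2 ratios equal the scanner's on replicate 1 and run close to their negative on replicate 2, which puts ablated RNA on top in each; they are uncentred (medians 0.487 and -0.115). No further step is named in the labels. The protocol text swaps the permissive and restrictive temperatures against the series design, which was followed.

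Intensities were background-corrected with normexp (offset 50) and each array was loess-normalized (limma 3.58.1, R 4.3.3). Copies were averaged, the brightest probe stood for a gene, and replicate 2 was turned. A probe counted as above background where at least 50% of its copies exceeded the local background median by 2 SD. Genes above background in no channel were left out. Ratios were tested two-sided against 0 with lmFit and eBayes, with Benjamini-Hochberg adjustment over all 5971 genes. All 56 probes were matched by locus tag. The members and lists were chosen with earlier results of these data known. Values are given for eIF4A, the highest and lowest same-sign means, the smallest p and the small complexes; further members are named for completeness. The number of arrays limits precision. No sequences were used here.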

Additional observations from a re-analysis of the deposited data

How the results depend on the processing

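No separate paired analysis was run, because each array sets an ablated RNA against a control RNA and the tests of its ratio already use that pairing. With the labelled dyes 0 factors were called by limma under every alternative that gave a test, and 3 passed once replicate 2 was turned. The median of the factors was 0.13 in the authors' log2 ratios, 0.095 with median centring, -0.042 without background correction, -0.11 with plain subtraction, -0.0023 without the filter on dim probes and 0.033 with the stricter filter; with either array left out it ran from 0.032 to 0.050. Factors above 0 on both arrays numbered 7 with print-tip loess, 6 of 21 with plain subtraction, 17 of 53 without the filter, 3 of 6 with the stricter filter and 5 with the sign turned. Those below 0 on both numbered 2 of 26 in the authors' values and 1 of 6 with the stricter filter. eIF4A stood at 0.26 in the authors' values and 0.039 with median centring, where the medians of all genes were 0.31 and 0.14, and at -0.28 and 0.10 with either array left out. The mean SD between its copies (0.17) was 0.77 with plain subtraction and 0.24 without background correction. The cause of these shifts was not tested. Of 375 values recomputed for the other factors, 319 stayed within 1 SD of the reported value, 53 moved by more and 3 passed the threshold, those with the sign turned. Many of the 319 could not have moved by more. Leaving out an array always shifts a mean of 2 values by less than their SD. Equalizing the brightness of the arrays (Aquantile), the eBayes trend and the filters on dim probes left the means unchanged. The SD is also widest where the arrays disagree, so this count does not measure stability. The mean of 13 of 26 factors changed sign in the authors' values. Dim spots limit most factors, since only 6 were above background in all channels.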

Other observations

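pAbp, the poly(A)-binding protein that joins the messenger's ends during initiation, was singled out after its values were seen. It read 2.17 on replicate 1 and -2.76 on replicate 2, with signals of 3476 in ablated and 467 in control RNA on replicate 1, and 361 in ablated and 2668 in control RNA on replicate 2. The Cy5 channel was the brighter both times, the opposite of eEF1gamma.

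Among the other probes printed 17 times, also chosen after their values were seen, Gapdh1, a glycolytic enzyme, was below 0 in 17 of 17 copies on replicate 1 (mean -0.33) and above 0 in 17 of 17 copies on replicate 2 (mean 0.47). His3.3A, a replacement histone, was below 0 in 17 of 17 copies on both arrays (means -0.59 and -0.34), though no copy was above background on replicate 2. RpS25, a ribosomal protein, was above 0 in 17 of 17 copies on replicate 1 (mean 0.82) and averaged 0.015 on replicate 2, where no copy was above background.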
